A study of Mus musculus with 6 samples.

Results

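Semaphorins, plexins, neuropilins, ephrins and Eph receptors, the ligands and receptors that guide migrating cells and growing axons, were described in cultured oligodendrocyte precursor cells (OPCs) with and without IFN-γ. Members were all protein-coding genes of the GENCODE mouse annotation whose symbols place them in these families, chosen by name. The rule found 53 genes, and 52 of them were listed in at least 1 of 2 prediction tables, which together hold 32049 target genes, 14914 of them protein-coding. *Epha8* was listed in neither. There were 48 in the table of untreated cells, 46 in that of IFN-γ-treated cells and 42 in both.

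OPCs were cultured from brains of Sox10-Cre/RCE mice at postnatal day 4 to 6, in which Cre driven by Sox10 switches on an EGFP reporter in the oligodendrocyte lineage. The labels give the strain as C57BL/6j, and the reporter line came from a mixed background of C57BL/6 and CD1. Brains of several pups of both sexes were pooled for a culture, cells were selected by the reporter or by the surface protein CD140a, and replicates came from different litters. All cells grew in proliferation medium with bFGF and PDGF-AA. From 24 h after passaging, Ctr-OPCs stayed in this medium and IFN-γ-OPCs received it with 100 ng/mL IFN-γ. The general culture protocol gives a treatment time of 48 h. H3K27ac-HiChIP, which enriches chromatin contacts of regions carrying the active histone mark H3K27ac, was made from 3 libraries per condition.

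The contacts entered the activity-by-contact (ABC) model, together with chromatin accessibility and H3K27ac coverage of the same condition. For each element, the model multiplies an activity, a signal from accessibility and H3K27ac, by the contact of the element with the transcription start site (TSS) of a gene. The ABC score is this product divided by its sum over all elements around the gene, called the gene total here. Pairs of an element and a target gene whose ABC score passed 0.05 are called connections. A single contact map is named for the 6 libraries, yet contact differs between the tables. Which map entered each table could not be settled, so a difference in contact is one between the tables. There is 1 table per condition and none per library, so no value below has a replicate error, no p-value was computed, and the read depth is unknown. The tables start at a score of 0.02 and at a promoter activity quantile of 0.4, so a gene absent from a table counts as 0 connections there, although it may carry elements below these limits.

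The 8 OPC marker genes checked were all listed in both conditions, with a median promoter activity quantile of 0.928 in Ctr-OPCs against 0.937 in IFN-γ-OPCs. Of 7 microglia markers, 4 were listed in Ctr-OPCs and 6 with IFN-γ, where all target genes listed numbered 25779 and 26591. The median quantiles were 0.663 and 0.650, each over the markers listed in that condition. All 5 neuronal markers were also listed in both, with medians of 0.777 and 0.764, so that a listing does not by itself mark a cell type. Of 5 maturing oligodendrocyte markers and 5 astrocyte markers, 4 each were listed in each condition, and of 3 endothelial markers 0 and 2. The part of other cell types in the values below was not tested.

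Semaphorins are secreted or membrane-bound ligands. Class 3 semaphorins are secreted and mostly act through a complex of a neuropilin, which binds the ligand, and a plexin, which carries the signal to the cytoskeleton, whereas most other classes bind plexins directly. Ephrins are tethered to the membrane, ephrin-A by a lipid anchor and ephrin-B by a transmembrane domain, and their Eph receptors are tyrosine kinases on the neighbouring cell. Both systems are known to steer the migration of OPCs, which respond to semaphorin 3A and 3F through neuropilins.

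The elements on which the results below turn are shown first. They are the element of the highest score of any guidance gene, in an intron of *Epha3*, elements of *Efna5*, *Epha5* and *Sema3a*, which among the 7 genes that gained a connection had the largest gains in summed score, and the strongest lost element of *Ephb6*, the gene that lost most. Each sequence is the central 300 bases of the element on the plus strand of mm10 (GRCm38), read from the RefSeq genome of that build. The windows are chr16:63857093-63857392 for *Epha3*, chr17:62882914-62883213 for *Efna5*, chr5:84415365-84415664 for *Epha5*, chr5:13263171-13263470 for *Sema3a* and chr6:41606155-41606454 for *Ephb6*. All are in introns of their target except the upstream element of *Efna5*, which is intergenic. Capitals mark matches on either strand to GAAANNGAA (like the ISRE of interferon-response factors), TGANTCA (AP-1), ACAANG (SOX) and the E-box CAGCTG.
Epha3 intron: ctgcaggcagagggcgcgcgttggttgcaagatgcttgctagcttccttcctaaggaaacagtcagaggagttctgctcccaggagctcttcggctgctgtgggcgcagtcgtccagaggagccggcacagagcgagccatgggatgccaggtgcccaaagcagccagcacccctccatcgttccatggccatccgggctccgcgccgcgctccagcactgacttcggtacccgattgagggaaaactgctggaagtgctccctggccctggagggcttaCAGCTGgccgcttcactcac
Efna5 upstream: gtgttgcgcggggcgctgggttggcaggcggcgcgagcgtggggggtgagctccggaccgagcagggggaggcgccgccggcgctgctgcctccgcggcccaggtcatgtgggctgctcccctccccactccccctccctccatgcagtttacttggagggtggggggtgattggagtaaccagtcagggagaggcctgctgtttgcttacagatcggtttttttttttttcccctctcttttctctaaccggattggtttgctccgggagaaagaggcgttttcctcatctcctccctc
Epha5 intron: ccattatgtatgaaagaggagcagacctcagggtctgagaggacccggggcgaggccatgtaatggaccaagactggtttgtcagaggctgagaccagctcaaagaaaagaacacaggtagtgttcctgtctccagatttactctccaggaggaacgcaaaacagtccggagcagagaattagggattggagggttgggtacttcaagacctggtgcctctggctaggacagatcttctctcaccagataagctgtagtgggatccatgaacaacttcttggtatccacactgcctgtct
Sema3a intron: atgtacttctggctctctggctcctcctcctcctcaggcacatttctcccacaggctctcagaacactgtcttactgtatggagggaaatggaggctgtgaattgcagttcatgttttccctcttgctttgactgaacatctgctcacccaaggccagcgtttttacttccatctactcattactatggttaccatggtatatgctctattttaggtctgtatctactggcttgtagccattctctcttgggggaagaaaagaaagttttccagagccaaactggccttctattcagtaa
Ephb6 intron: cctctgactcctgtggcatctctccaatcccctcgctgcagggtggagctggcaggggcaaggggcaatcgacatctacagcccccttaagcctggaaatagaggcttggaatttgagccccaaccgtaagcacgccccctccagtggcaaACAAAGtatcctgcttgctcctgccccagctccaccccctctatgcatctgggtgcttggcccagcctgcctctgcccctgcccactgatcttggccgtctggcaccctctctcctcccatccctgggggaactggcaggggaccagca

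In these windows the *Epha3* element held 1 CAGCTG E-box and the *Ephb6* element 1 SOX match. The windows of *Epha5*, *Sema3a* and the upstream *Efna5* element held no match to the 4 motifs. The *Epha3* window had a GC content of 63.0%, and the *Sema3a* window one of 45.3%.

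The shares were then counted over the connected elements of guidance genes with a length of 500 bp, 22 in Ctr-OPCs and 16 with IFN-γ, beside all listed elements of this length, 17106 and 22029. ISRE-like matches were in 1 and 2 guidance elements (4.55% and 12.5%, against 14.3% and 18.3% of all). SOX matches were in 11 and 9 (50% and 56.3%, against 70.1% and 71.5% of all), and AP-1 matches in 1 and 1 (4.55% and 6.25%, against 14.6% and 17.0%). CAGCTG was in 8 and 7 (36.4% and 43.8%, against 39.9% and 37.7%). The general E-box CANNTG, which includes CAGCTG, was in 21 and 13 (95.5% and 81.3%, against 92.9% and 93.2%). CCCTC, the core of the CTCF motif, was in 20 and 15 (90.9% and 93.8%, against 80.8% and 79.1%). The median GC content of the guidance elements was 61.0% and 57.4%, above the 50.2% and 49.4% of all elements, and how far base composition sets these shares was not tested.

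Guidance genes had 31 connections in Ctr-OPCs against 26 in IFN-γ-OPCs, so IFN-γ-OPCs held 45.6% of the connections of both tables (Wilson 95% interval 33.4 to 58.4, counting error only). Over all protein-coding genes this share was 51.6%. The interval takes connections as independent, which they are not. In Ctr-OPCs 19 of them overlapped a connection of the same gene in IFN-γ-OPCs. A connection was found for 24 genes in Ctr-OPCs, for 21 in IFN-γ-OPCs and for 17 in both. With IFN-γ, 7 guidance genes had more connections, where 12.7% of protein-coding genes had more, and 11 had fewer, where 10.9% had fewer. Of these 18 genes 17 changed by a single connection. The direction of this difference depended on the setting. A cut-off of 0.1 gave 8 and 9 connections and all listed pairs numbered 157 and 162, so the higher count was that of IFN-γ-OPCs in both. When the scores of a gene's elements in the same 5 kb bin were summed before the cut-off, there were 28 connected bins in Ctr-OPCs and 34 with IFN-γ. On this count 12 guidance genes had more (15.1% of protein-coding genes had) and 8 had fewer (12.4%).

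**Figure D1:**
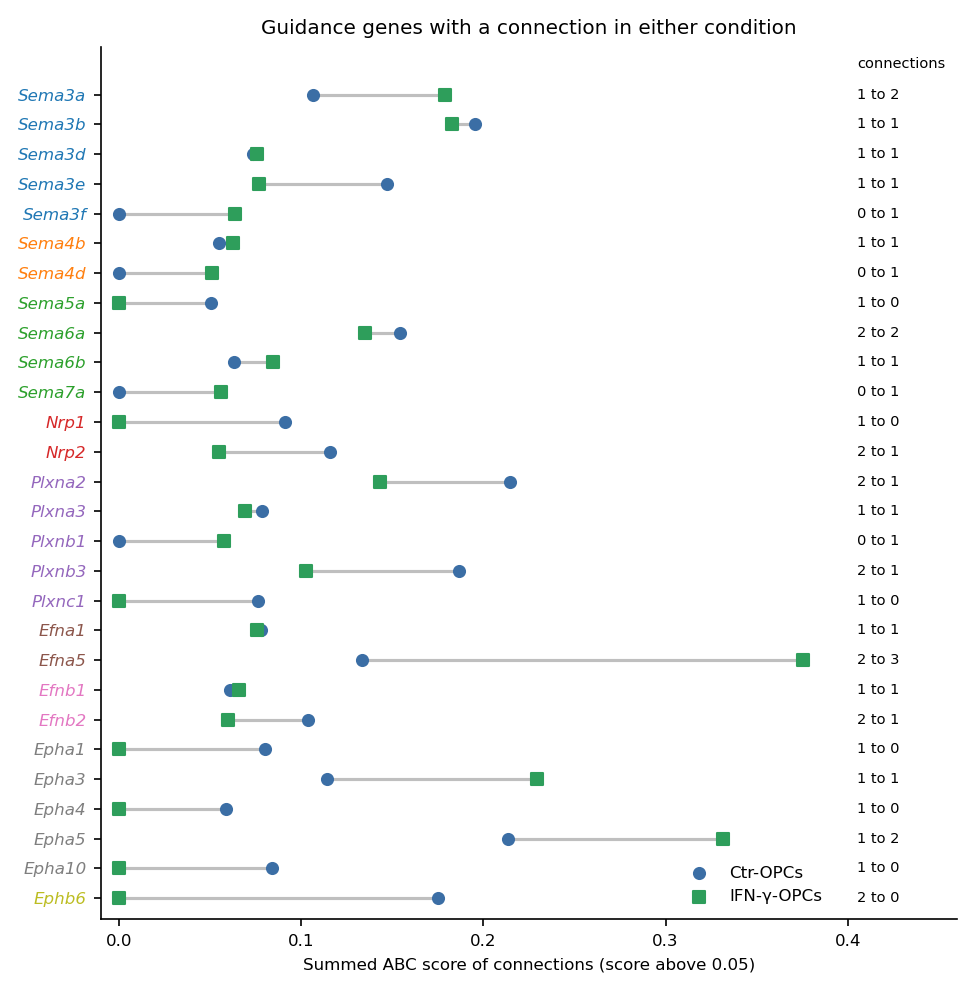
Summed ABC score of the connections of each guidance gene (x axis, no unit) in Ctr-OPCs (blue circles) and IFN-γ-OPCs (green squares), with the number of connections at the right; gene names are coloured by family and a gene without a connection sits at 0. *Efna5* moved from 0.133 to 0.375 and *Ephb6* from 0.175 to 0.

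Semaphorin ligands had 9 connections in Ctr-OPCs against 12 in IFN-γ-OPCs, and the receptors that bind them, neuropilins and plexins, had 9 and 5. Among the 20 semaphorin genes 4 had more and 1 had fewer, and among the 11 receptor genes 1 had more and 5 had fewer, where 12.7% and 10.9% of protein-coding genes did. Summed by bin, receptors had 6 connected bins in Ctr-OPCs and 5 with IFN-γ, with 1 gene more and 2 fewer, one of them *Nrp1*, which is absent from the table of IFN-γ-OPCs. On that count semaphorins had 11 and 19 bins, with 8 genes more and 2 fewer. Ephrins had 4 and 6 bins (2 genes more, 0 fewer), and Eph receptors had 7 and 4 (1 more, 4 fewer). Over protein-coding genes 15.1% had more bins and 12.4% had fewer. Ephrins had 6 connections in both conditions. Eph receptors had 7 and 3, with 1 gene higher and 4 lower. The summed score of the connections told the families apart differently: it was 0.726 and 0.561 for Eph receptors, but 0.375 and 0.577 for ephrins, whose number did not change. The higher sum of the ephrins was that of *Efna5* alone, and without it the other 7 had 0.242 and 0.201.

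Class 3 semaphorins, the secreted ligands, had 4 connections in Ctr-OPCs and 6 with IFN-γ. Summed by bin they had 5 and 10, with more for *Sema3a*, *Sema3d*, *Sema3e* and *Sema3f* and fewer for none. *Sema3a*, a repellent for many axons, had 1 connection in Ctr-OPCs against 2 in IFN-γ-OPCs, none of them shared. In Ctr-OPCs its connection was an element in its own intron 345 kb from the TSS (chr5:13470037-13470536), with a score of 0.106 that was 0.0273 in IFN-γ-OPCs. The strongest element in IFN-γ-OPCs was the one shown above, 138 kb from the TSS (chr5:13263071-13263570), which scored 0.0303 in Ctr-OPCs and 0.119 with IFN-γ. Its activity was 2.36 and 2.13, and its contact was listed at 0 in Ctr-OPCs against 0.00888 in IFN-γ-OPCs. A listed 0 leaves only the pseudocount as contact in Ctr-OPCs. The power-law score of this element, which takes a power law of distance in place of measured contact, was 0.128 in Ctr-OPCs against 0.0774 in IFN-γ-OPCs, and with power-law scores the number of connections of *Sema3a* did not change.

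*Sema3f*, the ligand of neuropilin-2, had 0 connections in Ctr-OPCs and 1 with IFN-γ, an intergenic element of 1638 bp 6.00 kb from the TSS with a score of 0.0635 that was not listed in Ctr-OPCs. *Sema3b* kept 1 connection, an intergenic element 3.56 kb away with the highest activity of any guidance connection, 6.53 in Ctr-OPCs against 5.34 in IFN-γ-OPCs, and scores of 0.195 and 0.183. The same element was connected with 8 other target genes in Ctr-OPCs and 1 under IFN-γ, where it was still listed for 15 other genes (19 in Ctr-OPCs), some of them just under the cut-off. *Sema3d* had 1 connection in both, with scores of 0.0736 and 0.0754. *Sema3e*, which binds plexin-D1 without a neuropilin, kept 1 intronic connection 14 kb away. Its score was 0.147 in Ctr-OPCs against 0.0767 in IFN-γ-OPCs although its activity (0.651 and 0.570) and contact (0.0267 and 0.0273) differed little, at a gene total that was higher in IFN-γ-OPCs. *Sema3c* and *Sema3g* had no connection.

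Of the membrane-bound semaphorins, 3 had a connection in only 1 condition. *Sema4d*, the ligand of plexin-B1, went from 0 to 1 connection with a score of 0.0323 in Ctr-OPCs and 0.0510 with IFN-γ. This element overlaps an annotated start of a *Sema4d* transcript. With equal numbers of top-scoring connections in both conditions, or over all listed pairs, the number of *Sema4d* did not change. With power-law scores it had 1 more, and by bin 2 more. *Sema7a*, a lipid-anchored ligand of plexin-C1, went from 0 to 1 with scores of 0.0478 and 0.0558. *Sema5a* went from 1 to 0 with scores of 0.0503 and 0.0341, but over all listed pairs it had 1 more with IFN-γ. *Sema4b* kept 1 connection (scores 0.0550 and 0.0627), *Sema6b* kept 1 (0.0633 and 0.0845) and *Sema6a*, a ligand of plexin-A2 and plexin-A4, kept 2 (0.103 and 0.0512 in Ctr-OPCs, then 0.0801 and 0.0551 with IFN-γ). The other class 4 to 6 semaphorins had no connection in either condition.

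*Nrp1*, the neuropilin that binds semaphorin 3A, had 1 connection in Ctr-OPCs, an intergenic element 1.27 kb from the TSS with a score of 0.0912. It was not listed in IFN-γ-OPCs, and a loss of the contact and a promoter or scores under the limits of the table cannot be told apart. *Nrp2* went from 2 connections to 1. Its shared intronic element scored 0.0643 and 0.0549, and its neighbour in the same 5 kb bin, with a score of 0.0513 in Ctr-OPCs, was not listed in IFN-γ-OPCs.

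Among plexins, *Plxna2* went from 2 connections to 1 and *Plxnb3* from 2 to 1. In both genes the stronger element was shared, with scores of 0.150 and 0.143 for *Plxna2* and 0.129 and 0.103 for *Plxnb3*, and the weaker neighbour within the same bin (0.0642 and 0.0575) was not listed in IFN-γ-OPCs, so that neither changed when scores were summed by bin. The shared *Plxna2* element overlaps an annotated start of a *Plxna2* transcript. *Plxnc1*, the receptor of semaphorin 7A, went from 1 to 0, with scores of 0.0763 and 0.0473. *Plxnb1*, the receptor of semaphorin 4D, went from 0 to 1 with an element over its UTR 1.58 kb from the TSS that scored 0.0577 in IFN-γ-OPCs and was not listed in Ctr-OPCs. *Plxna3* kept 1 connection, an element 82.9 kb away over the start of *Flna* with scores of 0.0783 and 0.0693. That element was connected with 8 other target genes in Ctr-OPCs against 13 in IFN-γ-OPCs.

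*Efna5*, which encodes ephrin-A5, had the largest gain in summed score of the genes that gained, 2 connections in Ctr-OPCs and 3 with IFN-γ, although over all listed pairs it had 1 fewer with IFN-γ and with power-law scores its number did not change. Its intronic element 18.5 kb from the TSS scored 0.0423 in Ctr-OPCs against 0.113 in IFN-γ-OPCs. Both of its inputs were higher in IFN-γ-OPCs, activity with 1.60 and 2.38 and contact with 0.0124 and 0.0216. The upstream element scored 0.0649 and 0.188, but it was 500 bp long in Ctr-OPCs and 1363 bp with IFN-γ (chr17:62882383-62883745). Its activity was 0.643 and 1.93, which per kb of element is 1.29 and 1.42. The third element scored 0.0683 and 0.0743. The gene total was 0.516 and 0.478. *Efna1* kept 1 connection, over its own coding exon, UTR and an annotated transcript start, with scores of 0.0778 and 0.0754. *Efna2*, *Efna3* and *Efna4* had none.

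Among ephrin-B genes, *Efnb2* went from 2 connections to 1. The elements of Ctr-OPCs, each 500 bp (scores 0.0530 and 0.0506), both overlap a single element of 1419 bp in IFN-γ-OPCs (score 0.060), and the number of connected bins did not change. The contact of this locus was 0.0254 in Ctr-OPCs against 0.00910 in IFN-γ-OPCs. *Efnb1* kept 1 connection with scores of 0.0608 and 0.0660, and *Efnb3* had none.

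*Epha3* and *Epha5*, receptors with high affinity for ephrin-A5, carried the 3 highest scores. The *Epha3* element in an intron 6.93 kb from the TSS scored 0.114 in Ctr-OPCs and 0.229 with IFN-γ, the highest score of a guidance gene in either table. Its length was 500 bp in both, its activity was 1.11 and 1.37 and its contact 0.0213 and 0.0418. *Epha5* went from 1 connection to 2. Its first element, over a coding exon and UTR, scored 0.214 and 0.198, and its intronic element 1.87 kb from the TSS scored 0.0494 in Ctr-OPCs, just under the cut-off, and 0.133 in IFN-γ-OPCs. The activity of the latter was 0.260 over 500 bp and 1.11 over 791 bp, or 0.520 and 1.40 per kb, at contacts of 0.0406 and 0.0298. Both elements lie in 1 bin, so *Epha5* did not change when scores were summed by bin.

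The other Eph receptors with a connection in Ctr-OPCs had none in IFN-γ-OPCs. *Ephb6*, whose kinase domain is inactive, went from 2 to 0. Summed by bin it went from 2 to 1, and with power-law scores its number did not change. A cut-off of 0.1 could show no change, since the highest score of *Ephb6* was 0.0998. Its stronger element, 0.822 kb from the TSS and shown above, scored 0.0998 in Ctr-OPCs but was missing from the table of IFN-γ-OPCs, and the second scored 0.0754 and 0.0277 with contacts of 0.0528 and 0.0247. This second element was 1203 bp long in Ctr-OPCs and 784 bp with IFN-γ, with an activity per kb of 0.607 and 0.560. *Epha1* went from 1 to 0 with scores of 0.0803 and 0.0458 for an element of 1638 bp in Ctr-OPCs and 945 bp with IFN-γ. Its direction turned over all listed pairs (3 more with IFN-γ) and with power-law scores (1 more). *Epha4*, which binds both classes of ephrin, went from 1 to 0 with scores of 0.0588 and 0.0255 and contacts of 0.0204 and 0.0115. *Epha10*, also without an active kinase, had 1 connection with a score of 0.0838 in Ctr-OPCs, and the gene was missing from the table of IFN-γ-OPCs. *Epha6*, *Epha7* and *Ephb4* were listed only in IFN-γ-OPCs, with no connection, and *Ephb2* only in Ctr-OPCs.

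**Figure D2:**
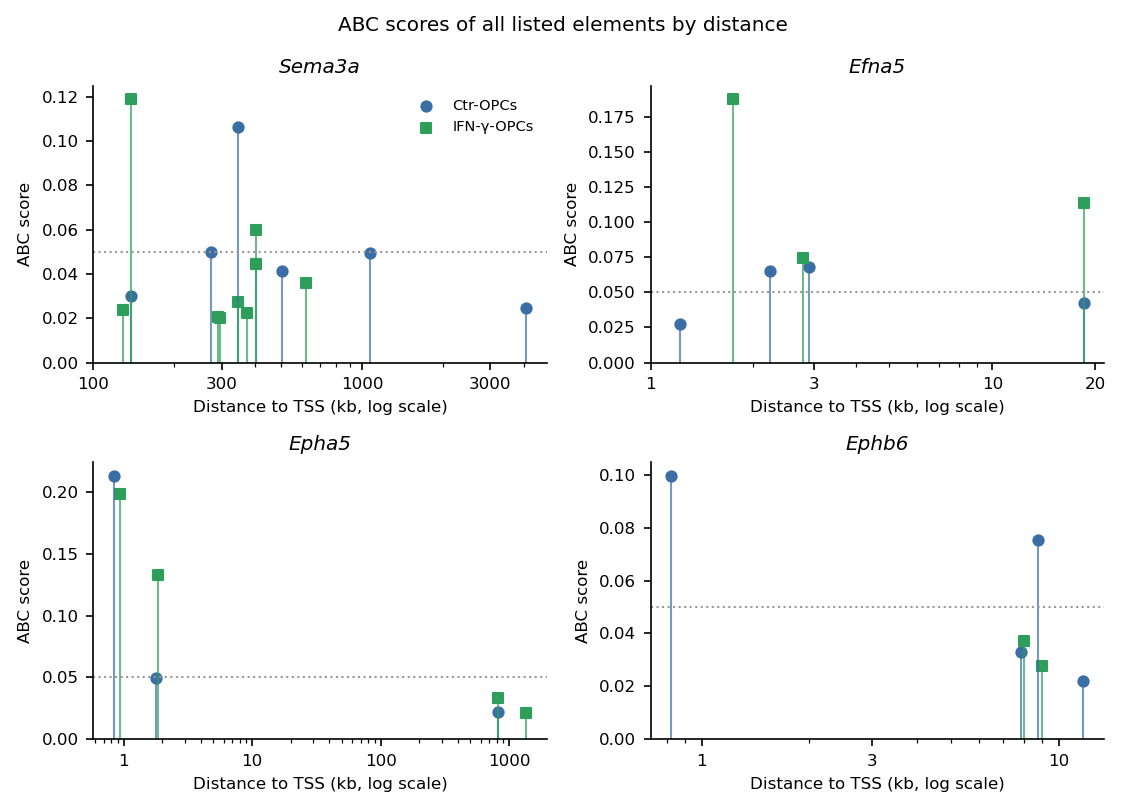
ABC score (y axis, no unit) of every listed element of *Sema3a*, *Efna5*, *Epha5* and *Ephb6* against its distance to the TSS (x axis, kb, log scale) in Ctr-OPCs (blue circles) and IFN-γ-OPCs (green squares). The dotted line is the cut-off of 0.05. All *Sema3a* elements lie over 100 kb away, and no element of *Ephb6* passes the line in IFN-γ-OPCs.

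Of the 31 connections in Ctr-OPCs, 19 were shared with IFN-γ-OPCs (61.3%, Wilson 95% interval 43.8 to 76.3), and of the 26 in IFN-γ-OPCs, 18 were shared (69.2%, 50 to 83.5). The shares over protein-coding genes were 56.7% and 53.0%. These intervals also cover counting error only and take connections as independent, although some belong to the same gene. Of the 12 Ctr-OPC connections that were not shared, 6 were listed in IFN-γ-OPCs below the cut-off, 4 had no overlapping element listed for that gene and 2 belonged to *Nrp1* and *Epha10*, which were absent. Of the 8 not shared in IFN-γ-OPCs, 5 were listed below the cut-off in Ctr-OPCs.

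At the cut-off of 0.05, connections of guidance genes lay closer to the TSS than those of protein-coding genes. In Ctr-OPCs their connections lay a median of 1.82 kb from the TSS, with IFN-γ 3.14 kb, against 5.05 and 5.53 kb over protein-coding genes. Elements within 5 kb of the TSS made up 23 of 31 connections (74.2%) and 15 of 26 (57.7%), where protein-coding genes had 49.7% and 46.5%. At 0.1, with 8 and 9 connections, the medians of the guidance genes turned to 2.94 and 1.87 kb, and those over protein-coding genes were not computed. Over all listed pairs the medians of the guidance genes were 11.6 and 18.1 kb, against 12.1 and 13.4 kb over protein-coding genes. Of the connected elements 11 in each condition lay in an intron of their target, 11 and 7 over an exon, and 9 and 8 outside the gene. No listed pair joined a gene to its own promoter, and none of a protein-coding gene lay closer than 0.75 kb. The count of overlaps with an annotated start was therefore limited in advance. An annotated transcript start of the same gene was overlapped by 3 in each condition. These were those of *Plxna2* and *Efna1* in both, that of *Ephb6* in Ctr-OPCs alone, and that of *Sema4d* in IFN-γ-OPCs alone. An element connected with at least 1 other target gene accounted for 13 connections in Ctr-OPCs and 12 with IFN-γ.

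**Figure D3:**
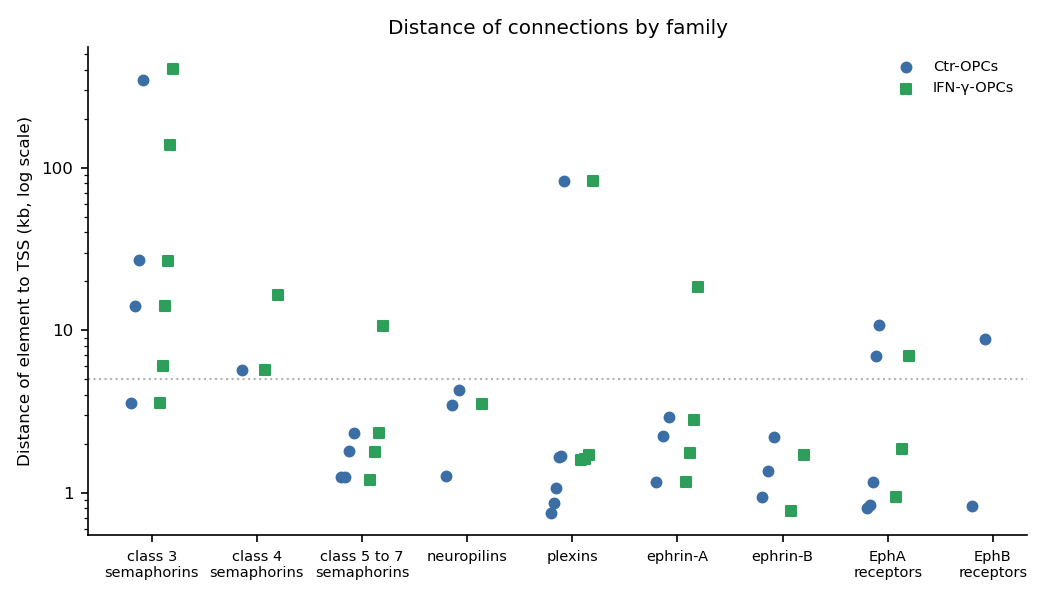
Distance between element and TSS (y axis, kb, log scale) of every connection by family in Ctr-OPCs (blue circles) and IFN-γ-OPCs (green squares). The dotted line marks 5 kb, the width of a contact bin. Connections over 100 kb belong to *Sema3a*, 1 in Ctr-OPCs against 2 in IFN-γ-OPCs.

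Over all listed pairs, those above the cut-off included, guidance genes had more distant elements in IFN-γ-OPCs. Pairs over 100 kb made up 33 of 157 (21%) in Ctr-OPCs and 55 of 162 (34.0%) with IFN-γ, whereas the share over protein-coding genes was 20.1% and 21.2%. EphA receptors had 4 such pairs of 15 in Ctr-OPCs against 14 of 24 in IFN-γ-OPCs, of which *Epha6* and *Epha7*, not listed in Ctr-OPCs, held 5. Class 3 semaphorins had 14 of 31 and 22 of 43, all of them of *Sema3a*, *Sema3c*, *Sema3d* and *Sema3e*. Pairs of 1 gene and elements listed for several genes are not independent of each other.

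Gene totals of the guidance genes were lower about as often as those of other genes. Of 42 genes listed in both tables, 12 had a higher total in IFN-γ-OPCs and 30 a lower one, where 3372 of 10428 protein-coding genes were higher and 7056 lower, and the median log2 change was -0.11 (SD over genes 0.28). The median over protein-coding genes was -0.08. Totals at least 1.5 times higher were found for 3 guidance genes, against 0.575% of protein-coding genes, and totals at least 1.5 times lower for 0, against 0.134%. The largest falls were those of *Ephb6* (0.522 and 0.412, log2 change -0.34), *Plxnb2* (1.51 and 1.19, -0.34), *Epha1* (0.512 and 0.421, -0.29), *Sema5a* (0.604 and 0.501, -0.27) and *Efna2* (2.76 and 2.30, -0.26).

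All 3 genes past this fold were class 3 semaphorins of chromosome 5. The total of *Sema3a* was 0.0960 in Ctr-OPCs and 0.181 with IFN-γ (1.89-fold), that of *Sema3e* was 0.124 and 0.212 (1.71-fold) and that of *Sema3c* was 0.173 and 0.279 (1.61-fold). The next were *Efnb1* (0.303 and 0.369, log2 change 0.29) and *Epha3* (0.219 and 0.258, 0.23). *Sema3d*, the other class 3 semaphorin of chromosome 5, had 0.165 and 0.185. *Sema3b* and *Sema3f* on chromosome 9 and *Sema3g* on chromosome 14 had log2 changes of -0.07, -0.02 and -0.12. Scores of all listed elements of *Sema3a* summed to 0.302 of its total in Ctr-OPCs against 0.374 with IFN-γ. For *Sema3e* these sums were 0.228 and 0.301, and for *Sema3c* 0.0521 and 0.0973. Most of each of these totals thus belonged to elements that are not listed. Which elements made the totals higher was not tested.

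The TSSs of the 4 genes of chromosome 5 span 5.19 Mb. This group was formed after the values were seen. Its totals were among the lowest of the guidance genes, and totals this low were more often higher over protein-coding genes too. Among 609 protein-coding genes with a mean total of both conditions under 0.3, 408 had a higher total in IFN-γ-OPCs, 28 were past the fold upwards and 7 downwards, with a median log2 change of 0.10. Within 1 Mb of the span, 7 other protein-coding genes could be compared, of which 5 had a higher total, with a median log2 change of 0.14. Among these *Pclo* had 0.210 and 0.206 and *Cacna2d1* had 0.240 and 0.190. *Gm9758*, *Gm10354* and *Gm17019*, which lie close together, had nearly the same low totals. They were 0.0610, 0.0612 and 0.0611 in Ctr-OPCs and 0.0675, 0.0673 and 0.0673 in IFN-γ-OPCs. These genes may not count as separate values, and the median is that of *Gm10354*.

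*Sema3a*, *Sema3d* and *Sema3e* shared elements. In IFN-γ-OPCs an element in an intron of *Sema3a* (chr5:13529178-13529677) was listed for *Sema3a* with a score of 0.0599, for *Sema3e* with 0.0487 and for *Sema3d* with 0.0348, at distances of 404, 496 and 1146 kb. In Ctr-OPCs it was listed for none of them, but 3 other elements were shared there. A neighbouring element (chr5:13526944-13527443) had the same 3 targets in IFN-γ-OPCs with scores of 0.0444, 0.0361 and 0.0258. Another, in an intron of *Sema3d* (chr5:12507517-12508016), was listed in IFN-γ-OPCs for *Sema3a* with 0.0358 and for *Sema3d* with 0.0289. The elements shared in Ctr-OPCs had a pair of these targets each. They scored 0.106 for *Sema3a* and 0.0218 for *Sema3d* (chr5:13470037-13470536), 0.0345 for *Sema3e* and 0.0267 for *Sema3d* (chr5:13547480-13547979), and 0.0303 for *Sema3a* and 0.0235 for *Sema3e* (chr5:13263067-13263566). Over the 8 matched pairs of the 4 genes, which came from 3 of them, contact was higher in 7 with a median log2 ratio of 0.44, and activity was higher in 3 with a median of -0.07. Over the 85 matched pairs of the other guidance genes, contact was higher in 42, with a median of -0.01, and over all 14500 matched pairs of protein-coding genes in 8071, with a median of 0.06. The 4 genes were grouped after their totals were seen, and a total is a sum of activity times contact, so these ratios are no independent support. The ratios also cover listed elements only, which held the smaller part of the totals past the fold, and *Sema3c* had no matched pair. The TSS of *Sema3a* in the tables is the annotated start of the gene, and an element 274 kb inside the gene over the start of another *Sema3a* transcript was listed in Ctr-OPCs with a score of 0.0499.

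**Figure D4:**
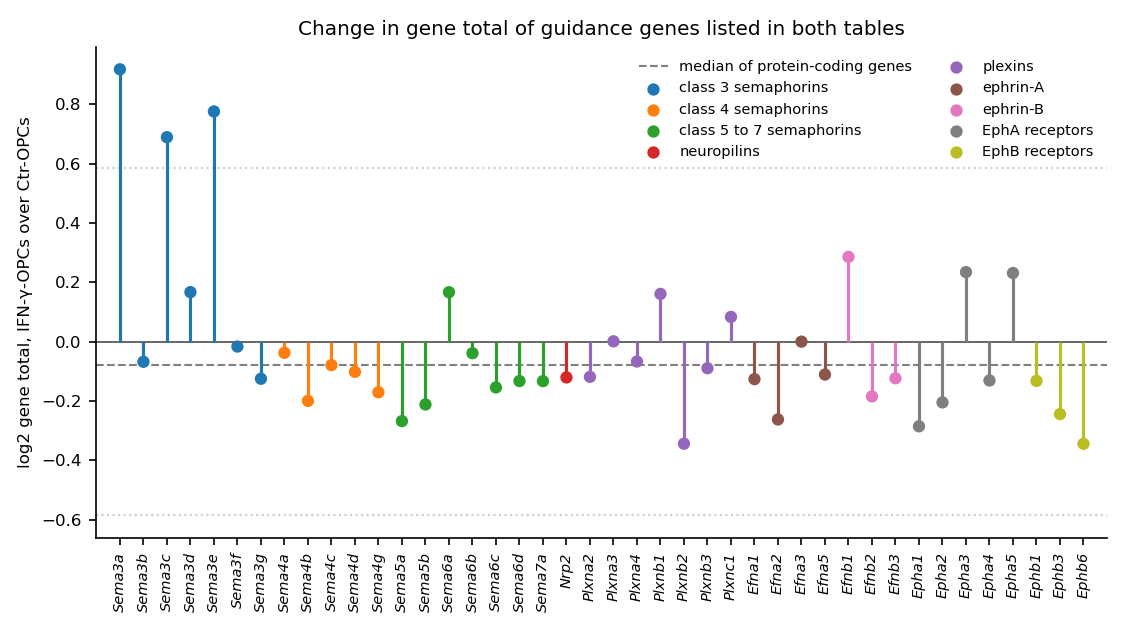
log2 ratio of the gene total, IFN-γ-OPCs over Ctr-OPCs (y axis), for the 42 guidance genes listed in both tables, coloured by family. The dashed line is the median of protein-coding genes and dotted lines mark a change of 1.5 times; *Sema3a*, *Sema3c* and *Sema3e* lie above the upper dotted line and most other genes lie below 0.

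Activity and contact were then compared over the 29 pairs of 24 guidance genes that could be matched between the tables and were a connection in at least 1 condition. The median log2 ratio of activity was -0.09 (SD over pairs 0.70), with 12 pairs higher in IFN-γ-OPCs and 17 lower, and over protein-coding genes it was -0.09. For adjusted contact the median was -0.05 (SD over pairs 0.77), with 13 higher and 16 lower, where protein-coding genes had 0.06. Both medians were far smaller than the spread over pairs, and the sign of both depended on the setting: activity divided by the median over elements of its table gave 0.02, and contact over all deposited pairs gave 0.04. Element length differed between the tables in 13 of the 29 pairs. Of the 29 pairs, 18 were a connection in both conditions and 11 in 1 condition only, and 1 of these 11, that of *Sema7a*, had both scores within 0.01 of the cut-off.

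**Figure D5:**
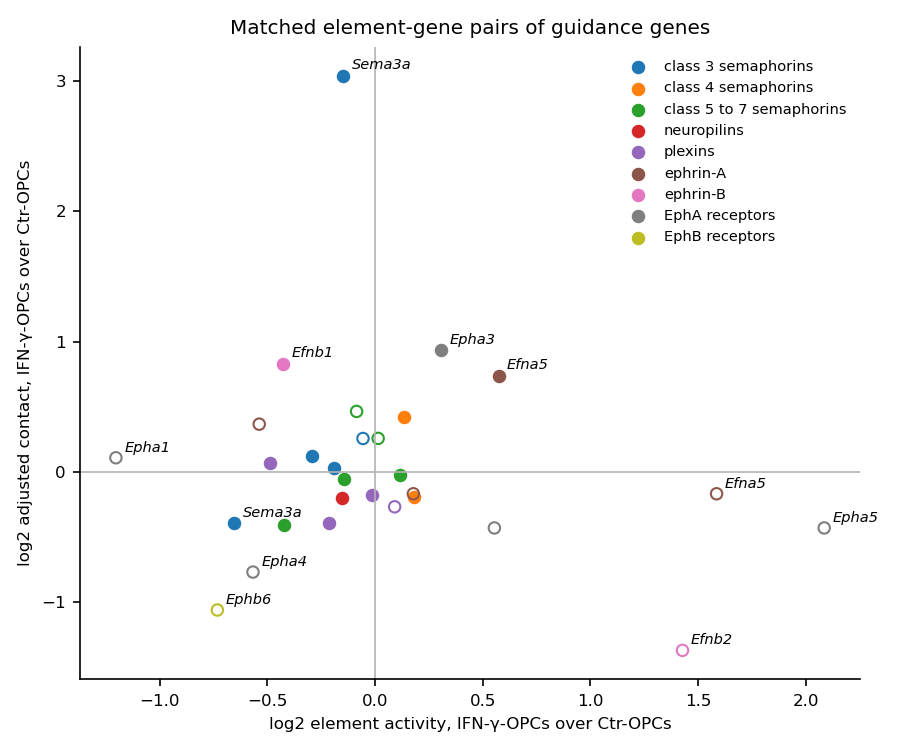
log2 ratio of adjusted contact (y axis) against log2 ratio of element activity (x axis), IFN-γ-OPCs over Ctr-OPCs, for the 29 matched pairs, coloured by family; filled points have elements of the same length in both tables and open points do not. The *Sema3a* pair at the top has a contact listed at 0 in Ctr-OPCs, where the adjusted value holds the pseudocount, and the open *Efna5* and *Epha5* points at the right have longer elements in IFN-γ-OPCs.

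Genes that act with these families were counted in the same way. Of 50 signalling partners, 41 were listed in at least 1 table, with 18 connections in Ctr-OPCs against 19 in IFN-γ-OPCs. More connections were found for 6 of them and fewer for 7, beside the 12.7% and 10.9% of protein-coding genes given above. None of the 34 totals that could be compared passed 1.5 times, beside 0.575% upwards and 0.134% downwards. Of 22 genes of other guidance families (netrins, Slits, Robos and others), 21 were listed, with 17 connections in both conditions, 4 genes with more and 6 with fewer, against the same 12.7% and 10.9%. The largest change was that of *Robo1*, a Slit receptor, with 3 connections in IFN-γ-OPCs, which was not listed in Ctr-OPCs. None of the 15 with a total in both tables passed 1.5 times.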

How the data were processed

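HiChIP for H3K27ac was made from 3 Ctr-OPC and 3 IFN-γ-OPC libraries. The submitters' processing notes name HiC-Pro and mm10, and the labels name one contact map for all 6 libraries, although contact differs between the tables, and which map entered each is not settled. With the ABC model (version not given in the sources used here), the authors combined HiChIP contacts with ATAC-seq and H3K27ac CUT&RUN signal into one deposited table per condition. Activity is a coverage signal per element. The deposited ABC score is a fraction of the gene total. Contact, the ABC numerator, the power-law score and the promoter activity quantile are scores with no unit in the deposited tables. Read depth is unknown.

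Members and lists were chosen with earlier results of these data known. Gene totals were the numerator divided by the ABC score. Connections had a score above 0.05 and were shared when elements of the same target overlapped by at least 1 bp. Activity and contact were compared over mutual best overlaps. A total was past the fold at 1.5 times. With 1 table per condition no test was run. Full values are given for the 5 genes with the largest gain, loss, rise and fall and for the highest scores, and every gene with a connection is named. Alternatives were a cut-off of 0.1, all deposited pairs, power-law scores, equal numbers of connections, stricter overlap and rescaled activity, and, chosen after seeing the data, bins of 5 kb, equal element lengths and totals without 4 semaphorins. Scripts used Python 3.11.15, pandas 2.3.3, SciPy 1.17.1 and pysam 0.24.0. They were tested on a copy of the Ctr-OPC values into which known changes were put. Some sequences and motifs are not reported here.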

Additional observations from a re-analysis of the deposited data

How the results depend on the processing

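No paired analysis was possible because the deposited values are given per condition and not per library, so replicate numbers could not be used as a block and no library could be left out. At a cut-off of 0.1 there were 8 connections in Ctr-OPCs against 9 in IFN-γ-OPCs, 2 genes with more and 2 with fewer (2.94% and 2.64% of protein-coding genes), and median distances of 2.94 and 1.87 kb. Over all deposited pairs there were 157 and 162, with 18 genes with more and 17 with fewer (40.6% and 33.5% of protein-coding genes), and medians of 11.6 and 18.1 kb. With power-law scores there were 51 and 50, and 80.4% of those of Ctr-OPCs were shared. Summed by 5 kb bin, a setting chosen after seeing the data, 12 genes had more and 8 had fewer (15.1% and 12.4% of protein-coding genes). The median log2 ratio of contact turned to 0.041 over all deposited pairs and to 0.0031 with equal element lengths, and that of activity to 0.022 after division by the median over elements. Without the 4 class 3 semaphorins of chromosome 5, 0 totals were past the fold upwards. Single genes turned direction over all deposited pairs (*Efna5* by -1, *Epha1* by 3 and *Sema5a* by 1 pair) and with power-law scores (*Epha1* by 1). Of the 18 genes that changed, 17 kept their direction with equal numbers of connections, 13 by bin, 9 over all deposited pairs, 9 with power-law scores and 2 at a cut-off of 0.1. The cause of these shifts was not tested. One table per condition and an unknown depth limit every value to a description.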
